A study of Sus scrofa with 61 samples.

Results

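Secreted Wnt antagonists and Wnt ligands were examined in the longissimus muscle of 61 male pig fetuses, 1 fetus per microarray. The group was made of 7 genes, FRZB, SFRP1, SFRP2, SFRP4, DKK3, WIF1 and WNT5A, and its members were chosen by name: every array probe whose gene name, or whose symbol in the study's own gene lists, was one of the 7. Probes were found for 5 of the 7 genes, 17 probes in all, with 9 for FRZB, 4 for DKK3, 2 for SFRP4 and 1 each for SFRP2 and WNT5A. SFRP1 and WIF1 were not analysed here. FRZB, SFRP2, SFRP4 and DKK3 had probes bright enough to be tested, 4 genes of the 9005 gene symbols that could be tested in the series.

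The fetuses were of 4 genotypes at 2 gestational ages, day 90 and day 110, the last weeks before birth in this species. LW fetuses were purebred Large White and MS fetuses purebred Meishan, a Chinese breed. LWMS fetuses had a Meishan sow and a Large White boar, and MSLW fetuses a Large White sow and a Meishan boar. At day 90 each genotype had 8 fetuses, and at day 110 there were 9 LW, 7 MS, 8 LWMS and 5 MSLW fetuses. Sows received semen of both breeds, so a litter could hold purebred and crossbred fetuses. The labels do not name the sow, littermates were counted as separate fetuses, and the p-values measure the spread between fetuses only. Whole muscle was ground before extraction, so for every result fewer cells of a type and less RNA per cell cannot be told apart.

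Wnt proteins are secreted signals that bind Frizzled and LRP receptors on neighbouring cells and, through beta-catenin or through planar polarity proteins, direct cell fate, growth and shape. The secreted frizzled-related proteins (FRZB, SFRP1, SFRP2, SFRP4) carry a Frizzled-like domain that can bind Wnt proteins outside the cell, and WIF1 also binds them there. DKK3 belongs to the Dickkopf family, whose other members block LRP receptors, although DKK3 itself is an atypical member. WNT5A is a ligand known mainly for signalling without beta-catenin. In developing muscle, Wnt signals are known to take part in the formation of the first muscle cells, and in later stages many of these proteins are made by connective tissue cells.

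Each probe is a stretch of 60 bases. The probes on which the results rest are printed here 5′ to 3′ as the scanner files give them, with capitals where a run of at least 15 bases is shared with another probe of the same gene. For FRZB 3 of the probes are shown because FRZB differences between breeds varied along the transcript. They start at bases 621, 1135 and 2234 of the array's FRZB transcript.
FRZB A_72_P704136: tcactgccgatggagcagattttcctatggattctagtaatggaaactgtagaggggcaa
FRZB A_72_P532722: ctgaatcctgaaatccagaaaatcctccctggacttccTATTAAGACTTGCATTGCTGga
FRZB A_72_P500019: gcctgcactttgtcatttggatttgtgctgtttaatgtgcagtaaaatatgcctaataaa
SFRP2 O13697: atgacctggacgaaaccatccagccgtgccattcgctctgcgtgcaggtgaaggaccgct
SFRP4 A_72_P289989: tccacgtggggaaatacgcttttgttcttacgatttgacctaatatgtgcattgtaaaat
DKK3 A_72_P561704: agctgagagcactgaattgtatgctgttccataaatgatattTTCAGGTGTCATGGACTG
WNT5A O11731: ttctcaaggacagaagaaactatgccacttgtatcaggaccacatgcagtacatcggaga
The DKK3 run of 18 bases is shared with probe A_72_P146426, which in turn shares 53 bases with probe O2687, so these 3 of the 4 DKK3 probes read nearly the same place. The FRZB run of 20 bases is shared with probe A_72_P690851. FRZB probes A_72_P199147 and O10296 share 18 bases.

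Values are log2 of the spot brightness after all arrays were given the same distribution of brightness (quantile normalization), so a difference of 1 is a doubling. For each gene the probe with the highest mean, called the main probe, was followed through the comparisons: A_72_P500019 for FRZB, O13697 for SFRP2, A_72_P289989 for SFRP4 and A_72_P561704 for DKK3. Levels of different probes are not comparable with each other. Differences were tested with limma in 1 fit over the 8 groups, with Benjamini-Hochberg adjustment over all 42436 probes kept and a threshold of 0.01 on the adjusted p. On each array between 34346 and 45683 probes were well above background. The 8 slides each carried between 6 and 8 of the 8 groups, so differences could also be taken within a slide. The labelled tissue was checked on 11 muscle fibre genes, all of them measured, whose mean log2 signal was between 16.6 and 17.3 in the 8 groups.

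**Figure D1:**
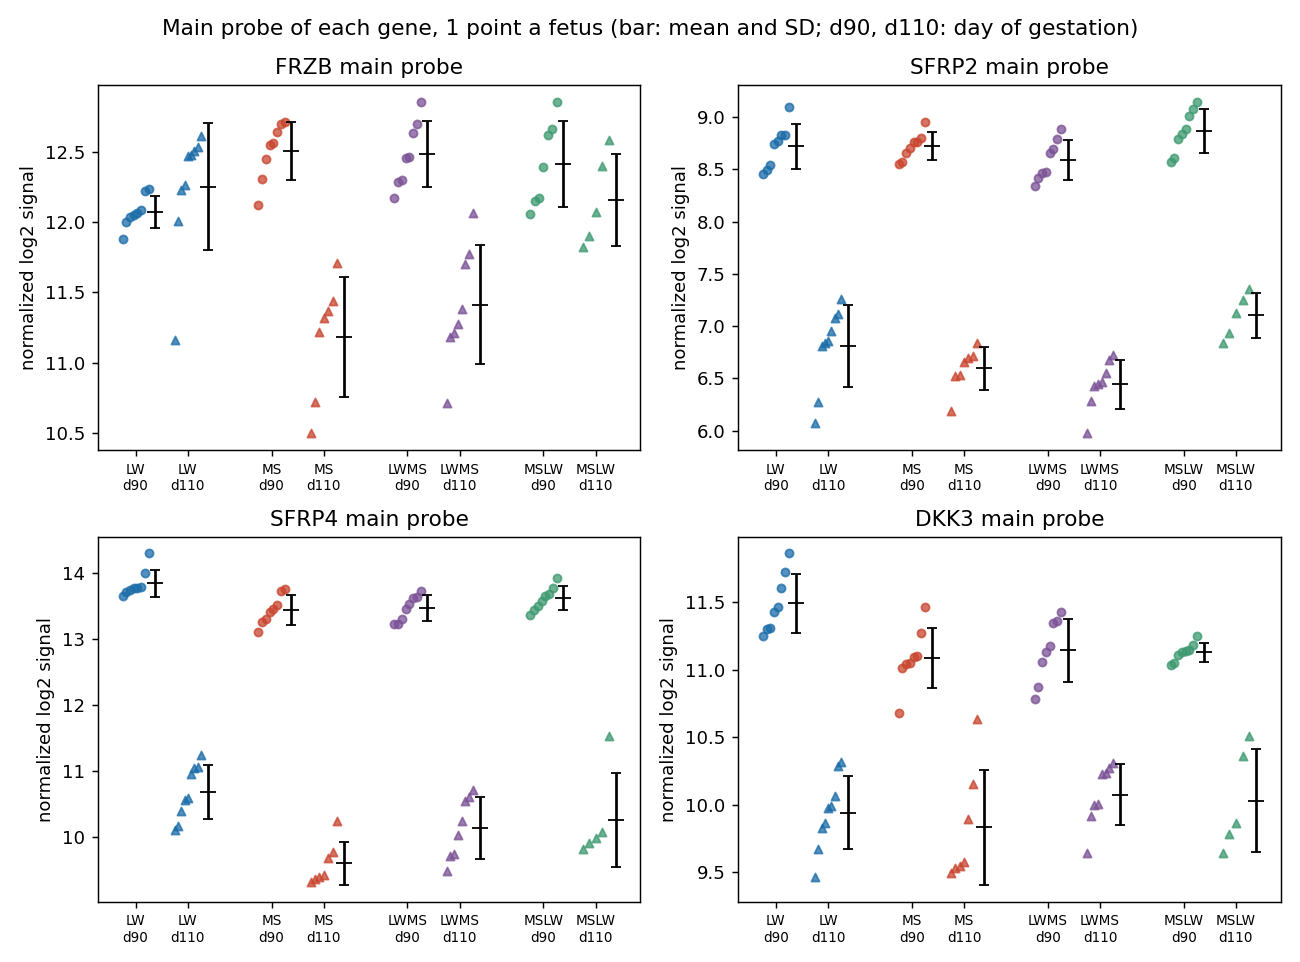
Normalized log2 signal of the main probe (vertical axis) in each fetus of the 8 groups (horizontal axis, circles for day 90 and triangles for day 110), sorted by value within a group, with the group mean and SD as a bar. SFRP2, SFRP4 and DKK3 lay lower at day 110 in all genotypes, and FRZB lay lower at day 110 in MS and LWMS fetuses.

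The change between day 90 and day 110 addressed the last step of muscle maturation. All 4 genes tested fell in the fetuses of Meishan sows (MS and LWMS) and 3 of 4 in those of Large White sows (LW and MSLW), and FRZB was the gene that was not called in the latter. Over all probes 45.3% were called for LW (23.5% lower), 56.7% for MS (28.1% lower), 50.9% for LWMS (25.7% lower) and 44.6% for MSLW (23.8% lower). The median difference over all probes was near 0 in each genotype, between 0.02 and 0.04.

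SFRP4 had the widest change of the 4 main probes. In LW fetuses its signal was 13.65 at the lowest, 13.77 at the median and 14.30 at the highest at day 90, against 10.11, 10.59 and 11.25 at day 110. In MS fetuses the same 3 values were 13.11, 13.43 and 13.76 at day 90 and 9.32, 9.43 and 10.25 at day 110. The ages did not overlap in any genotype. In LW it fell by 3.16 ± 0.17 (SE) on the log2 scale, 8.93-fold, with a limma adjusted p of 3.84e-23. In MS it fell by 3.84 ± 0.18, 14.3-fold, with a limma adjusted p of 6.82e-26.

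In LWMS fetuses SFRP4 ran from 13.23 through a median of 13.49 to 13.73 at day 90, and from 9.49 through 10.14 to 10.72 at day 110, and it fell by 3.33 ± 0.18 (SE). In MSLW fetuses the range at day 90 was 13.36 to 13.92 with a median of 13.61. The 5 MSLW fetuses of day 110 had SFRP4 at 9.82, 9.91, 9.98, 10.08 and 11.53. The last of these stood apart from the other 4, and it still lay below every fetus of day 90. SFRP4 fell by 3.35 ± 0.20 in MSLW, and by 3.67 without that fetus. Within slides SFRP4 was lower at day 110 on 7 of 7 slides in LW, 7 of 7 in MS, 8 of 8 in LWMS and 5 of 5 in MSLW. Its second probe, O12911, gave age differences of -3.20 (LW), -3.72 (MS), -3.28 (LWMS) and -3.29 (MSLW), called in each genotype.

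SFRP2 also fell in every genotype. Its single probe ran from 8.46 through a median of 8.76 to 9.09 in LW at day 90 and from 6.07 through 6.86 to 7.26 at day 110. In MS it ran from 8.56 through 8.74 to 8.96 at day 90 and from 6.19 through 6.66 to 6.84 at day 110. No fetus of day 110 reached the level of a fetus of day 90 in any genotype. It fell by 1.91 ± 0.12 (SE) in LW, 3.77-fold, and fell by 2.13 ± 0.12 in MS, 4.37-fold, with limma adjusted p of 5.17e-21 and 4.38e-22.

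In LWMS fetuses SFRP2 ran from 8.34 through 8.57 to 8.88 at day 90 and from 5.97 through 6.45 to 6.72 at day 110. In MSLW fetuses it ran from 8.57 through 8.86 to 9.15 at day 90, and the 5 fetuses of day 110 were at 6.84, 6.93, 7.12, 7.25 and 7.36. SFRP2 fell by 2.15 ± 0.12 in LWMS and fell by 1.77 ± 0.14 in MSLW. Within slides it was lower at day 110 on every slide that held both ages, 7, 7, 8 and 5 slides for LW, MS, LWMS and MSLW.

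At the main probes DKK3 fell less than SFRP2 and SFRP4 on the log2 scale in every genotype, a ranking that was not tested. In LW its order with SFRP2 depended on the processing. Over the settings SFRP2 ran there from -1.97 to -1.45 and DKK3 from -1.59 to -1.49. In LW its main probe ran from 11.25 through a median of 11.45 to 11.87 at day 90 and from 9.47 through 9.97 to 10.31 at day 110. In MS it ran from 10.68 through 11.07 to 11.46 at day 90 and from 9.49 through 9.57 to 10.63 at day 110. The ages did not overlap, although in MS the highest fetus of day 110 lay just under the lowest of day 90. DKK3 fell by 1.56 ± 0.13 (SE) in LW, 2.94-fold, and fell by 1.26 ± 0.14 in MS, 2.39-fold, with limma adjusted p of 7.38e-16 and 6.64e-12.

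In LWMS fetuses DKK3 ran from 10.79 through 11.15 to 11.43 at day 90 and from 9.64 through 10.12 to 10.31 at day 110. In MSLW it ran from 11.03 through 11.14 to 11.25 at day 90, and the fetuses of day 110 were at 9.64, 9.78, 9.86, 10.36 and 10.51. It fell by 1.07 ± 0.13 in LWMS and fell by 1.102 ± 0.15 in MSLW. All 4 DKK3 probes passed the test in each genotype. The probe nearest the start of the transcript, A_72_P334498 at base 376, was dim: at day 110 it was well above background in 2 of 9 LW, 1 of 7 MS, 2 of 8 LWMS and 1 of 5 MSLW fetuses, so its fitted differences of -2.44 to -1.57 rest mostly on signals near background.

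FRZB, also known as secreted frizzled-related protein 3, did not follow the other 3. In LW its main probe ran from 11.88 through a median of 12.06 to 12.24 at day 90 and from 11.16 through 12.47 to 12.62 at day 110, and the difference was 0.18 ± 0.16 (SE), with a 95% interval of -0.14 to 0.50 and a limma adjusted p of 0.352. In MS it ran from 12.12 through 12.56 to 12.72 at day 90 and from 10.50 through 11.32 to 11.71 at day 110. All MS fetuses of day 110 lay below all those of day 90. FRZB fell by 1.32 ± 0.17 in MS, 2.50-fold, with a limma adjusted p of 9.76e-10.

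In LWMS fetuses FRZB ran from 12.17 through 12.46 to 12.86 at day 90 and from 10.71 through 11.33 to 12.06 at day 110, with no overlap, and fell by 1.07 ± 0.16, 2.10-fold, with a limma adjusted p of 1.01e-07. In MSLW fetuses the day 90 values were 12.06 through 12.39 to 12.86 over 7 fetuses, since the spot of 1 of the 8 was marked non-uniform and was left out of the fit. The 5 MSLW fetuses of day 110 were at 11.83, 11.90, 12.07, 12.40 and 12.59 and overlapped with day 90. The difference was -0.26 ± 0.19, with a 95% interval of -0.64 to 0.13 and a limma adjusted p of 0.253. With the non-uniform spot kept, at 10.59, the difference was -0.02.

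**Figure D2:**
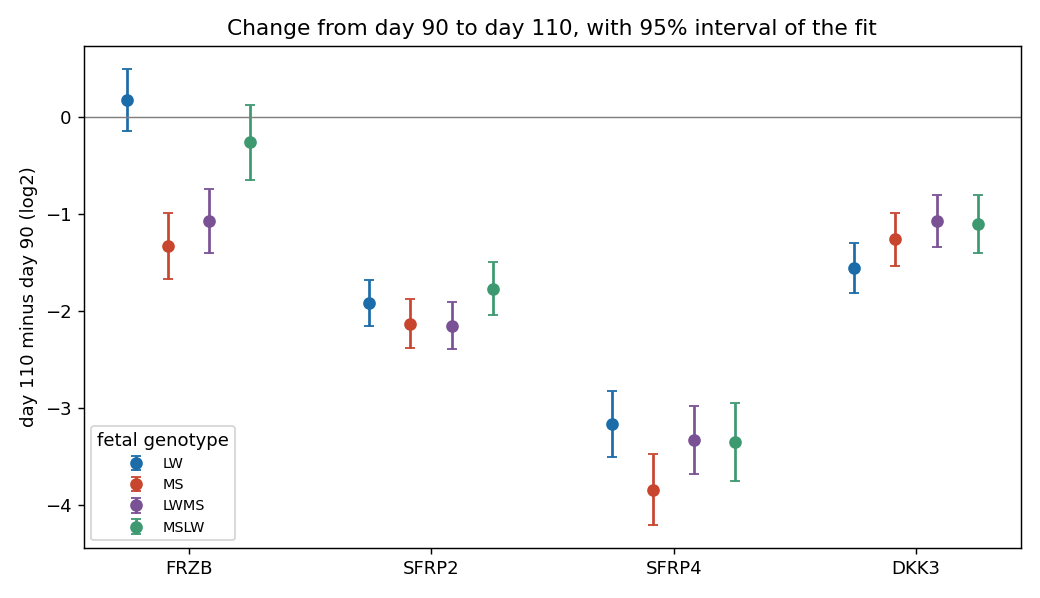
Difference between day 110 and day 90 in log2 units (vertical axis) for the main probe of each gene (horizontal axis) in each fetal genotype (colour), with the 95% interval of the fit as a bar. SFRP2, SFRP4 and DKK3 lie below 0 in all 4 genotypes, and FRZB lies below 0 in MS and LWMS with intervals that reach across 0 in LW and MSLW.

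The breed difference in these age changes was tested directly. Of the 4 genes 1 was called, FRZB, whose change was lower in MS than in LW, at -1.504 ± 0.23 (SE) on the log2 scale, 2.84-fold, with a 95% interval of -1.97 to -1.04 and a limma adjusted p of 1.03e-05. Over all probes 5.95% were called and 3.39% called lower, with 43.0% of those called being higher in MS, or 63.7% after scaling to the 75th percentile. All 9 FRZB probes passed, between -1.55 and -1.19. For SFRP4 the difference in age change was -0.68 ± 0.25, with a limma adjusted p of 0.0578. For SFRP2 it was -0.21 ± 0.17 and for DKK3 0.30 ± 0.19, with limma adjusted p of 0.444 and 0.313.

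At day 90 none of the 4 main probes passed the test between MS and LW under limma, where 12.8% of all probes were called. An unadjusted p below 0.05 was found for 3 of the 4, against 30.5% of all probes. The main FRZB probe was higher in MS by 0.43 ± 0.16 (SE) with a limma adjusted p of 0.0527, and within slides on 8 of 8 slides. Over the 9 FRZB probes the difference ran from -0.27 to 0.48. SFRP4 was at -0.40 ± 0.18, DKK3 at -0.40 ± 0.13 with a limma adjusted p of 0.0218, and SFRP2 at 0.00 ± 0.12. DKK3 was lower in MS on 8 of 8 slides, and 1 of its 4 probes was called. With the spot's median signal or the authors' log2 values the main DKK3 probe passed the test, both at -0.45.

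At day 110 FRZB and SFRP4 were below LW in MS fetuses, 2 of the 4 genes called, against 29.0% of all probes, 15.2% being called lower. FRZB was lower by 1.07 ± 0.17, 2.10-fold, with a limma adjusted p of 5.1e-07, and on 6 of 6 slides. The groups overlapped through 1 LW fetus at 11.16, while the other 8 LW fetuses were all above every MS fetus, and without that fetus the difference was -1.21. SFRP4 was lower by 1.08 ± 0.18, 2.11-fold, with a limma adjusted p of 1.68e-06, and on 6 of 6 slides, although its groups overlapped too. SFRP2 was at -0.21 ± 0.12 and DKK3 at -0.11 ± 0.13, with intervals of -0.45 to 0.03 and -0.38 to 0.16.

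The size of the FRZB breed difference depended on the probe. Of its 9 probes, 7 have a stated start in the array's FRZB transcript. At day 90 the 4 probes that start between bases 621 and 1329 gave MS minus LW of -0.05, -0.27, -0.19 and -0.13 in the order of their starts, and the 3 that start between bases 1808 and 2234 gave 0.20, 0.48 and 0.43. At day 110 the first 4 gave -1.53, -1.46, -1.59 and -1.65, and the last 3 gave -1.34, -0.98 and -1.07. Across the 7 probes, which share the same fetuses and in part the same transcript, Pearson's r with the start was 0.848 at day 90 and 0.828 at day 110, as a description. All 9 probes were negative at day 110 and passed the test there, and none was called at day 90. The age change in MS ran from -1.41 to -0.95 over the 9 probes. As the mean over the probes of the gene, FRZB was at 0.10 at day 90 and at -1.35 at day 110.

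**Figure D3:**
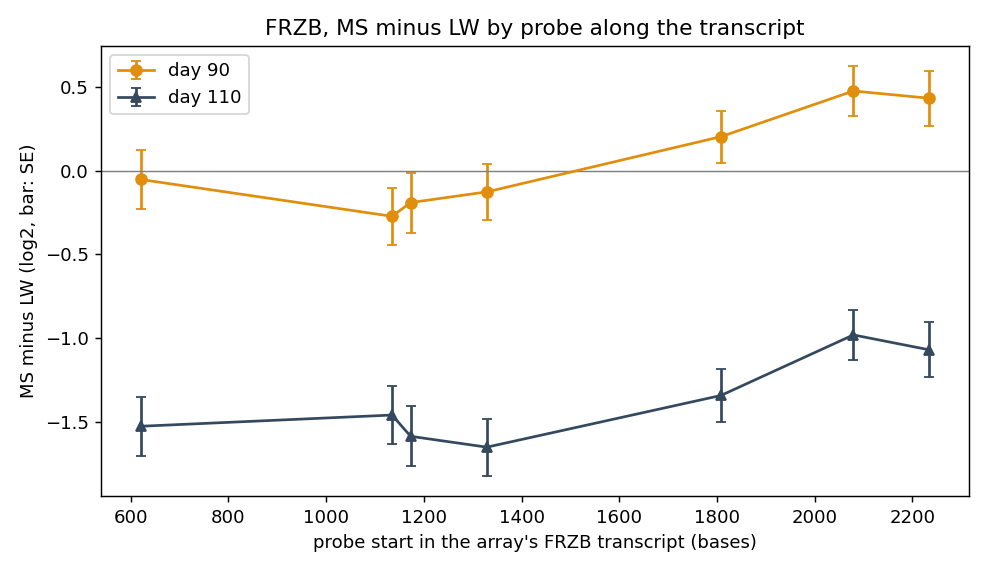
MS minus LW in log2 units (vertical axis, with the SE of the fit as a bar) for the 7 FRZB probes with a stated position, by their start in the array's FRZB transcript in bases (horizontal axis), at day 90 (circles) and day 110 (triangles), with lines joining the probes of an age. The probes that start at 1808 or later lie above the others at both ages.

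At day 110 the order of the 4 genotypes was the same at every FRZB probe, and the gaps between them varied with the probe. At the main probe FRZB was at 12.25 ± 0.45 (SD, n = 9) in LW, 12.16 ± 0.33 (SD, n = 5) in MSLW, 11.41 ± 0.42 (SD, n = 8) in LWMS and 11.18 ± 0.43 (SD, n = 7) in MS. At the main probe LW and MSLW, both carried by Large White sows, did not differ beyond their spread, at -0.10 ± 0.18 (SE) for MSLW minus LW with an interval of -0.46 to 0.27, and neither did LWMS and MS, both carried by Meishan sows, at -0.23 ± 0.17 for MS minus LWMS with an interval of -0.57 to 0.11. Between the sow breeds, LWMS was below LW by 0.84 ± 0.16 (limma adjusted p of 1.16e-04) and MS was below MSLW by 0.97 ± 0.19 (limma adjusted p of 3.7e-04), and both of these differences were called at all 9 FRZB probes.

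The neighbours lay further apart at the 4 FRZB probes that start between bases 621 and 1329. At A_72_P690851 the means at day 110 were 9.59 in LW, 9.17 in MSLW, 8.65 in LWMS and 8.00 in MS. The mean of LWMS was nearer to that of MSLW than to that of MS there. At these 4 probes MS minus LWMS was between -0.65 and -0.59, with unadjusted 95% intervals below 0 and limma adjusted p of 0.0117 to 0.0252. At the same probes MSLW minus LW was between -0.48 and -0.38, with intervals that also lay below 0 and limma adjusted p of 0.0876 to 0.196. Neither difference was called at any of the 9 probes. Over all probes 4.98%, 4.30%, 9.05% (4.80% lower) and 4.06% (2.94% lower) were called for MSLW minus LW, MS minus LWMS, LWMS minus LW and MS minus MSLW, which were chosen after the values were seen. LWMS minus LW and MS minus MSLW lie between litters, while MSLW and LW, or MS and LWMS, can share a litter. The sow was not in the fit. The sow as uterine environment, the alleles she passed on and differences between single litters cannot be told apart. At day 90 the order at the main FRZB probe was MS, LWMS, MSLW and LW, at 12.51, 12.48, 12.42 and 12.07, and no member was called under limma for MS minus LWMS (1.48% of all probes), MSLW minus LW (1.83%), LWMS minus LW (2.53%) or MS minus MSLW (2.06%). At an unadjusted p below 0.05 the members were 0, 2, 3 and 0 of 4 there, against 11.9%, 15.8%, 17.3% and 15.1% of all probes.

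The direct comparison of the reciprocal crosses gave a smaller margin. At day 110 LWMS minus MSLW was -0.74 ± 0.19 (SE) for FRZB, with a limma adjusted p of 0.0166, and 1 of the 9 FRZB probes passed. It was negative on 5 of 5 slides, between -1.22 and -0.12. SFRP2 was the 1 gene of 4 called there, where 0.912% of all probes were called and 0.542% called lower. Its LWMS fetuses ran from 5.97 to 6.72 and its MSLW fetuses from 6.84 to 7.36 without overlap, and the difference was -0.66 ± 0.14, with a limma adjusted p of 0.0024. SFRP2 was lower in LWMS on 5 of 5 slides, between -0.87 and -0.47. The SFRP2 call did not hold with the spot's median signal, the authors' log2 values or the normexp background, at -0.53, -0.52 and -0.42, nor without 1 MSLW fetus or another, at -0.62 and -0.60. SFRP4 and DKK3 were at -0.13 ± 0.20 and 0.05 ± 0.15.

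At day 90 none of the 4 genes was called between the reciprocal crosses under limma, where 0.500% of all probes were. An unadjusted p below 0.05 was found for 1 gene, against 9.55% of all probes. That gene was SFRP2, at -0.28 ± 0.12 (SE), lower in LWMS on 8 of 8 slides. FRZB was at 0.07 ± 0.17 there, again without 1 MSLW fetus.

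The genotype of the sow varies only between litters and that of the boar also within them. The sow was not in the fit, so p-values for the maternal genotype may be too small. The same holds for age changes, MS minus LW, LWMS minus LW, MS minus MSLW and the reciprocal crosses, which also lie between litters. The shares called for the maternal and the paternal genotype are not comparable. The effect of the maternal genotype on the age change was called for 1 gene, FRZB, at -1.16 ± 0.17 (SE) with a limma adjusted p of 1.13e-05, where 2.91% of all probes were called and 1.81% called lower. All 9 FRZB probes passed, between -1.20 and -0.93. Of all probes called, 38% were positive, or 51.2% after scaling to the 75th percentile. For SFRP2, SFRP4 and DKK3 the value was -0.30 ± 0.13, -0.33 ± 0.18 and 0.16 ± 0.14. The paternal genotype was called for none of the 4 under limma, where 0.497% of all probes were. Of the probes called, 29.9% were positive, or 44.8% after scaling to the 75th percentile. An unadjusted p below 0.05 was found for 1 of the 4 genes, against 14% of all probes. For FRZB the paternal value was -0.35 ± 0.17 with a limma adjusted p of 0.352. Whether the maternal and paternal values of FRZB differ from each other was not tested.

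The mean of LWMS and MSLW lay near the mean of LW and MS. Each cross alone could lie elsewhere. For SFRP2 at day 110 the means were 7.102 in MSLW and 6.442 in LWMS, against 6.807 in LW and 6.595 in MS. None of the 4 genes was called for crosses minus mid-parent under limma at either age, where 0.0495% and 0.0778% of all probes were. None had an unadjusted p below 0.05, against 3.63% of all probes at day 90 and 7.02% at day 110. FRZB was at 0.16 ± 0.12 (SE) at day 90 and 0.07 ± 0.13 at day 110, and SFRP4 at -0.10 ± 0.12 and 0.06 ± 0.13.

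WNT5A, the single ligand among the members with a probe, was not well above background in any fetus of 7 groups and was so in 1 of 8 MS fetuses at day 90, 1 of 61 in all. The probe was not kept for testing and its level is known only to be at or under background. Of the 18 other Wnt ligands listed, 7 had an array probe and 5 could be tested.

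The wider pathway was followed through 98 listed genes of 8 roles, of which 65 had an array probe and 54 could be tested by their main probe. With age, 28 of the 54 fell and 7 rose in LW, and 25 fell and 8 rose in MS, against 23.5% of all probes called lower in LW, 28.1% called lower in MS, and 45.3% and 56.7% called in all. The median difference over the 54 was -0.36 in LW and -0.38 in MS, against 0.03 over all probes in both. Among ligands, WNT2B fell by 1.49 ± 0.14 (SE) in LW and fell by 2.515 ± 0.15 in MS, a difference in age change that was itself called, at -1.02 with a limma adjusted p of 4.08e-04. WLS, the carrier that brings Wnt proteins to the cell surface, fell by 0.65 in LW and fell by 0.93 in MS.

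Among the other secreted inhibitors, 2 of 4 fell in each genotype. SOSTDC1, which binds Wnt receptors and bone morphogenetic proteins, fell by 2.86 ± 0.37 in LW, and had a fitted difference of -4.36 ± 0.40 in MS, where it was well above background in 1 of 7 fetuses of day 110 (7 of 9 in LW). DKK1, a blocker of LRP receptors, was well above background at day 110 in 3 of 9 LW and 4 of 7 MS fetuses, and by fitted values fell by 1.38 ± 0.33 in LW and fell by 1.15 ± 0.35 in MS. SFRP5, the remaining tested frizzled-related protein, was at -0.36 ± 0.34 in LW and -0.47 ± 0.36 in MS and did not pass.

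Of the 13 receptors tested, 5 fell and 1 rose in LW, near the 45.3% called over all probes, and LRP6, a co-receptor for Wnt proteins, fell by 0.76 ± 0.07. Among the 17 cytoplasmic and nuclear genes 10 fell and 4 rose in LW. DVL2, which passes the signal on from Frizzled, rose by 2.41 ± 0.16 in LW and by 2.32 ± 0.17 in MS, while TCF7L1, a transcription factor of the pathway, had differences of -1.36 and -1.53, both called. Of the 7 planar polarity genes 5 fell in each genotype. DACT1, which binds Dishevelled proteins, fell by 1.69 ± 0.20 in LW and fell by 3.29 ± 0.22 in MS, with a limma adjusted p of 1.83e-04 for the difference, but it was well above background in 1 of 7 MS and 8 of 9 LW fetuses of day 110, so its MS values rest on signals near background. Of the 4 target and feedback genes, CD44 fell by 1.65 ± 0.14 in LW and MYC rose by 0.42 ± 0.11.

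Between MS and LW at day 110, 7 of the 54 were higher and 11 lower, near the 29.0% called and 15.2% called lower over all probes, with a median of -0.01. WNT2B and CD44 were lower in MS, as FRZB and SFRP4 were, at -0.86 and -1.06. SOSTDC1 and DACT1 were called lower too, and each was well above background in 1 of 7 MS fetuses. FZD5 and ROR2, receptors, were higher in MS by 0.80 and 0.66. For the maternal genotype by age, 2 of the 54 were called, FZD9 and ROR2 at 0.68 and 0.56, near the 2.91% called over all probes.

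Connective tissue markers mostly fell with age, as SFRP2, SFRP4 and DKK3 did in every genotype and FRZB in MS and LWMS only. Of 10 fibroblast marker genes, all measured, 9 fell with age in each genotype, with a median of -1.08 in LW and -1.96 in MS. Between 23.5% and 28.1% of all probes were called lower with age, by genotype. At day 110 MS was below LW for 6 of the 10 and above for 1. Over all probes 29.0% were called there and 15.2% called lower. The mean of the 10 markers ran from 13.03 to 13.51 over the fetuses of day 90. At day 110 it ran from 11.69 to 12.27 in LW, 11.48 to 12.12 in MSLW, 11.35 to 12.13 in LWMS and 11.19 to 11.46 in MS. The ages formed separate clusters on this mean, so its relation with the members was taken on deviations from the 8 group means: Pearson's r was 0.735 with SFRP4, 0.504 with DKK3 and 0.411 with SFRP2 over 61 fetuses, and 0.275 with FRZB over 60, as a description of values from the same arrays. Of 11 muscle fibre markers 6 rose in LW, and 7 rose and 1 fell in MS. Over all probes 45.3% were called in LW and 56.7% in MS, in either direction. Of 4 cartilage markers tested 3 fell with age in each genotype, none was called for MS minus LW at day 110, and the 1 tendon marker of 3 that could be tested fell in each genotype. The part of the cell make-up in the results of the members was not tested.

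Between the reciprocal crosses at day 110 none of the 10 fibroblast markers was called for LWMS minus MSLW under limma, where 0.912% of all probes were. Single markers lay on both sides of 0, from -0.43 for THY1 to 0.62 for DPT. FRZB, at -0.74, was not called there either, and FRZB was not tested against the markers. For the maternal genotype by age 3 of the 10 were lower and 1 higher, where 2.91% of all probes were called and 1.81% called lower. The mean of 5 endothelium markers at day 110 followed the same order as FRZB, at 11.21 in LW, 11.11 in MSLW, 10.89 in LWMS and 10.84 in MS. The 1 tendon marker tested had this order too, at 8.446, 8.345, 7.741 and 7.111. Endothelium and tendon are named here because their order matched. The means of the fibroblast, muscle fibre, satellite cell, cartilage, mural, adipocyte, nerve and blood markers did not have it. The fibroblast mean was 11.715 in LWMS and 11.687 in MSLW. At day 90 the endothelium mean was highest in MSLW, at 11.451, and lowest in MS, at 11.372, unlike the main FRZB probe. All 5 endothelium markers were negative for LWMS minus MSLW at day 110, between -0.34 and -0.09. They were also negative for the maternal genotype by age, between -0.34 and -0.22, and none was called in either. With age 3 of the 5 fell and 1 rose in each genotype. The part of endothelium or tendon in the FRZB values was not tested.

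**Figure D4:**
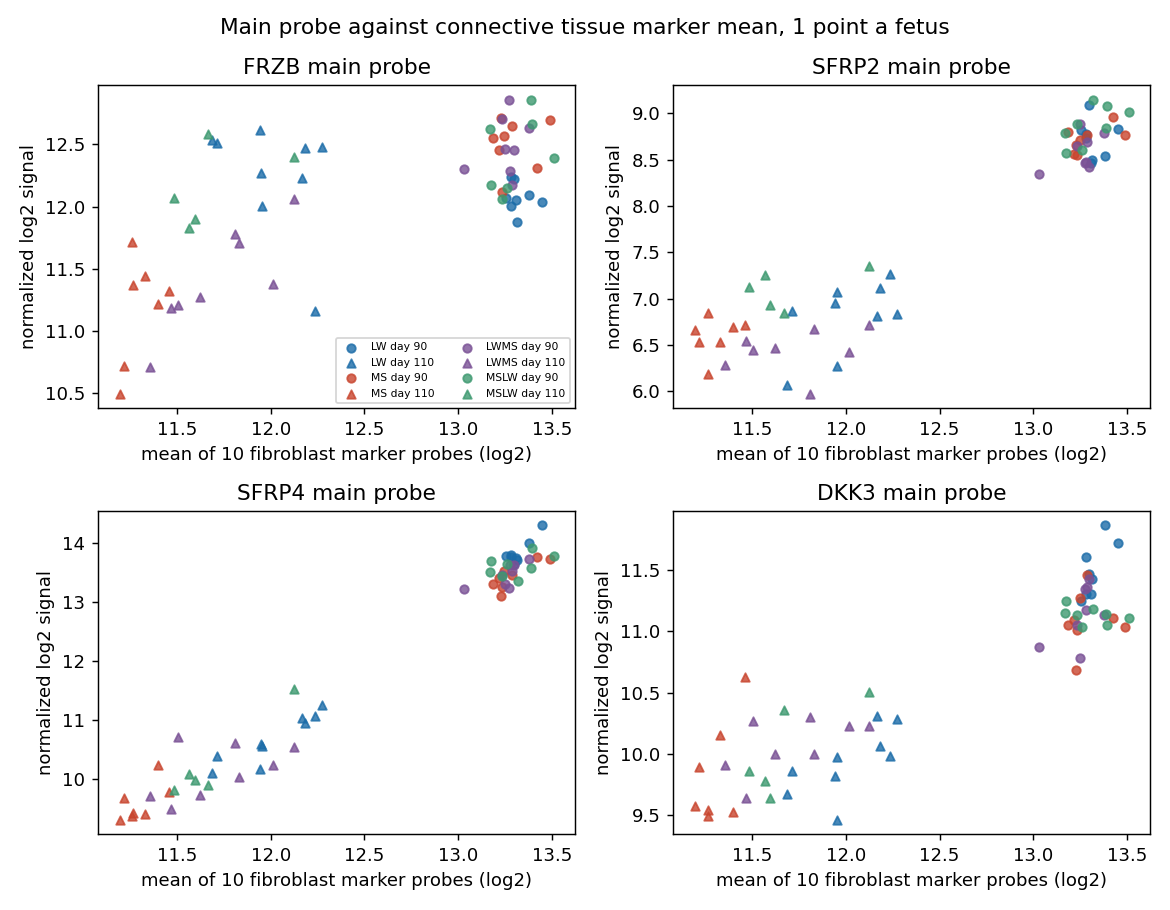
Normalized log2 signal of each main probe (vertical axis) against the mean log2 signal of the 10 fibroblast marker probes (horizontal axis) in each fetus, by genotype (colour) and age (circles for day 90, triangles for day 110). The ages form separate clusters on the horizontal axis, and among the fetuses of day 110 SFRP4 is higher where the marker mean is higher while FRZB spreads widely.

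Among 9001 other genes, each by its main probe, the nearest in pattern over the fetuses were ANTXR1, CTHRC1 and MEST for SFRP4, with Pearson's r of 0.991, 0.989 and 0.989. For SFRP2 they were MARCKS, ASF1B and MDK at 0.981, 0.978 and 0.976, and for DKK3 COL8A2, ANGPTL6 and ASPN at 0.937, 0.931 and 0.930. The closest to FRZB were further off, SRPX, MBD4 and FGF7 at 0.789, 0.784 and 0.782. These values run over both ages, so a shared age difference enters them. On deviations from the group means the first of each were at 0.753 for ANTXR1, 0.618 for MARCKS, 0.608 for COL8A2 and 0.425 for SRPX. Among the members themselves, r on such deviations was 0.524 for DKK3 and SFRP4, 0.269 for SFRP2 and SFRP4, and 0.074 for FRZB and SFRP4.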

How the data were processed

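Total RNA of longissimus muscle from 61 pig fetuses was labelled with Cy3 and hybridised on 1-colour Agilent arrays. The authors deposited, per array, the spot intensity written by Agilent Feature Extraction 10.10.1.1, background-subtracted and detrended but not normalized between arrays, with the software's 0 or 1 marks in other columns, and a table of quantile-normalized log2 values. The intensity of 60306 non-control spots was quantile normalized and log2 transformed here, with non-uniform spots left out and spots of 1 probe averaged. Probes were kept where 80% or more of the arrays of any group had them well above background, and 42436 were tested with limma 3.58.1 in R 4.3.3, in a fit of the 8 group means. The study's random sow effect was not fitted, since the labels do not name the sow. Slides were used as a block in an alternative. The rows of the deposited log2 table carry the running number of the spot in the scanner files: Spearman's rho with the spot signal was 0.995 to 0.999 on each of the 61 arrays, against 0.003 to 0.009 when its numbers were read as the feature number. The column medians were 8.09 to 8.10, and these deposited log2 values served as an alternative only. The main probe of a gene was the kept probe with the highest mean. All 7 members, every probe of each, the 3 genes with the largest test statistic of each pathway role and the 3 genes nearest in pattern could be named. Members, lists and tests were chosen with earlier results of these data known. The fit was tested on simulated data. The number of fetuses per group limits the precision. Figures were drawn with matplotlib.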

Additional observations from a re-analysis of the deposited data

Results flagged for a closer look

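In LW at day 110, 1 fetus had FRZB at 11.157, apart from the other 8, which ran from 12.01 to 12.62. Its SFRP4, at 11.06, and DKK3, at 9.99, were inside the range of the other 8, its SFRP2, at 7.26, was above their highest of 7.12, and its fibroblast marker mean, at 12.23, and 41948 probes well above background were inside theirs.

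In MSLW at day 110, 1 fetus had SFRP4 at 11.525, apart from the other 4, which ran from 9.82 to 10.08. Its fibroblast marker mean was 12.12 against 11.48 to 11.67 in the others, and its SFRP2, at 7.36, and DKK3, at 10.51, were also the highest of the 5. Of 32 groups of a gene and a condition looked at in this way 2 stood out, and chance gives about 1 in 20.

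The age change of FRZB differed between MS and LW, at -1.504 by the test of the difference itself, and between sow breeds, at -1.158.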

How the results depend on the processing

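Each difference of a main probe was recomputed with the spot's median signal, the authors' log2 values, the normexp background with an offset of 50, scaling to the 75th percentile, no filter, a filter on all arrays, non-uniform spots kept, slide as a block, the mean over the probes of a gene, LW and MS fetuses only and each MSLW fetus of day 110 left out. Leaving out the LW fetus with the low FRZB was added after seeing the data. Of these values 791 kept their side of the threshold, 5 lost and 4 gained a call, and no called value changed sign. For FRZB the breed difference in age change ran from -1.64 to -1.45 and the FRZB maternal value from -1.28 to -1.10, with every limma adjusted p under the threshold.

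The number of member genes called changed in 2 comparisons. For MS minus LW at day 90 it was 1 with the median signal and 1 with the authors' log2 values. For LWMS minus MSLW at day 110 it was 0 with the median signal, 0 with the authors' log2 values, 0 with normexp and 2 with slide as a block, where FRZB passed at -0.77. It ran from 0 to 1 when an MSLW fetus was left out, and was 2 without the LW fetus.

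Over all probes, counts moved by over 1.5 times for the crosses minus mid-parent, from 21 and 33 to 11 and 21 with the median signal, 11 and 20 with the authors' values, 6 and 19 with normexp and 4 and 9 with the filter on all arrays. With slide as a block 2088 probes were called for the maternal genotype by age, against 1237. Without 1 MSLW fetus, the one with the high SFRP4, the calls were 238 against 387 for LWMS minus MSLW at day 110, 751 for the maternal and 327 against 211 for the paternal genotype by age. With 1 mean per gene fewer features are tested: calls were 12550, 14268 and 12391 for the age change in LW, LWMS and MSLW, 8132 for MS minus LW at day 110, 1475 for the difference in age change, 113 and 215 for the reciprocal crosses, 748 and 125 for the maternal and paternal genotype by age, against 19230, 21584, 18932, 12289, 2524, 212, 387, 1237 and 211. The cause of the other changes was not tested. No analysis within litters was possible because the labels do not name the sow. Slides, which held several groups each, were used as a block and for differences within a slide. Signal over background limited WNT5A and 1 DKK3 probe and, at day 110, SOSTDC1, DACT1 and DKK1.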
